A study of Rattus norvegicus with 9 samples.

Results

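This account compares livers of type 2 diabetic (T2D) rats treated with Cγ plus lupanine with livers of healthy untreated rats, and asks which gene signals still differed from healthy after the treatment. The comparison used 6 arrays, 3 for each group, and every transcript cluster that carries exactly 1 gene symbol, which were 23446 of the 68842 clusters tested and cover 22093 genes. Each array read a pool of liver RNA from 3 male Wistar rats. Treated rats had T2D induced with a high-fat diet and streptozotocin, a toxin of the insulin-producing beta cells, and then received 28 mg/kg Cγ, a storage protein fraction of lupin seeds, with 20 mg/kg lupanine, a lupin alkaloid, for 7 days (pools 1 to 3). T2D control rats had the same induction and the saline vehicle without Cγ or lupanine (pools 4 to 6). Healthy rats had the vehicle alone, with neither induction nor treatment (pools 7 to 9). The high-fat diet went on after the streptozotocin. The T2D control arrays entered the fit and stand beside the treated values, so that a level already present without treatment can be seen. Livers of both T2D groups were lysed in Trizol and healthy livers in Buffer RLT. In every difference from healthy the lysis reagent, the high-fat diet, the streptozotocin and the diabetes therefore cannot be told apart. Treated minus healthy differences also hold any effect of Cγ plus lupanine, which this comparison alone cannot separate from those factors. The model is chemically induced and its hyperglycemia follows from both the diet and the loss of beta cells. A p-value here sets a difference against the spread between pools, each an average over 3 animals. It would reflect only technical spread if pools of a group shared RNA. The fit assumes that all groups share 1 spread per cluster, while healthy pools varied more, as given below. P-values against healthy can thus be too small, and those between the T2D groups too large.

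The liver sets blood glucose by making glucose from amino acids, lactate and glycerol when insulin is low, and by storing it as glycogen and fat when insulin is high. It is also the main site of cholesterol synthesis, which the SREBP transcription factors switch on when sterols run short and which falls when sterols are plentiful. A fatty, diabetic liver is known to gather lipid-laden macrophages around dying or overloaded hepatocytes, with activation of the stellate cells that lay down matrix.

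The differences were many and mostly small. Among clusters with 1 symbol, 3508 were higher in treated than in healthy livers at an adjusted p under 0.05 (15.0% of those tested) and 5820 were lower (24.8%), by limma with Benjamini-Hochberg adjustment. Over all 68842 clusters the shares were 11.1% higher and 23.1% lower. The threshold of the study's methods takes more than a 2-fold difference and p under 0.05 before adjustment, and by it 616 gene clusters were higher (2.63%) and 228 were lower (0.972%), and over all clusters 2.81% were higher and 0.819% lower. Without treated pool 2 or 3 the 5820 lower clusters became 3588 and 3437. A gene is said to have risen or fallen where its adjusted p was under 0.05, and differences are treated minus healthy, between group means of log2 signals. The counts that rose and fell in each gene group below are to be read beside 15.0% and 24.8% of gene clusters. Those shares varied with signal. The share that rose was 0.527% under a mean log2 signal of 3, 33.3% from 6 to 8 and 26.4% from 8 to 14. Groups of bright genes are therefore also to be read beside the shares at their signal.

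The balance of calls moved with signal. With a mean log2 signal under 3, 35 of 6647 gene clusters rose and 1344 fell, and only 3 of these fell over 2-fold. Between 6 and 8, 1244 of 3737 rose and 884 fell, 276 and 91 of them over 2-fold, while in the brightest clusters, from 8 to 14, 278 of 1052 rose and 319 fell. The share that fell was 20.2% under 3 and 30.3% between 8 and 14. The median difference over gene clusters was -0.11, and -0.13 over all clusters. Centring each array on its median turned the balance of calls to 4774 higher and 2926 lower, and clusters with a mean of at least 5 alone gave 2843 higher and 2202 lower. A small difference in a dim gene is therefore given below as a value, and the text turns on genes over 2-fold.

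**Figure D1:**
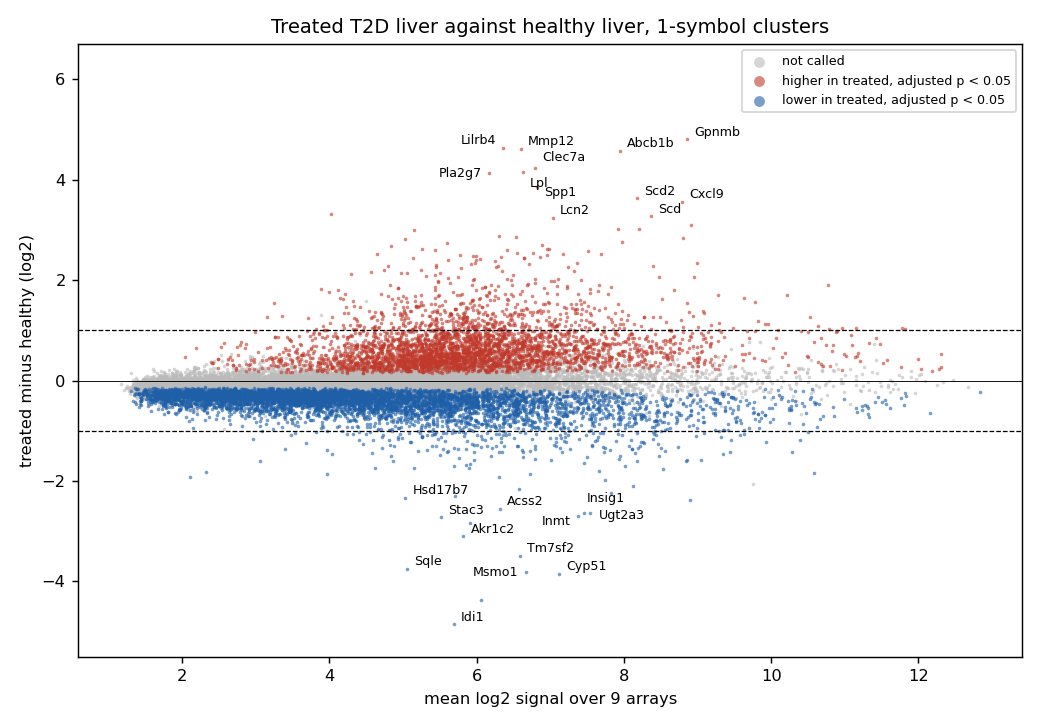
Difference of treated minus healthy log2 signal (vertical axis) against the mean log2 signal over all 9 arrays (horizontal axis) for the 23446 clusters with 1 gene symbol; red points rose, blue points fell at an adjusted p under 0.05, and grey points were not called. The 12 largest rises and the 12 largest falls of the text are labelled, dashed lines mark a 2-fold difference, and the dim left side holds many small falls.

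The healthy arrays stood apart in their control probes. The mean of 23 background probe sets was 2.85 to 2.94 log2 in treated, 2.80 to 2.85 in T2D control and 3.35 to 3.72 in healthy pools. A set of 8 control probe sets named AFFX-r averaged 8.41 to 8.49 in treated, 8.32 to 8.48 in T2D control and 9.48 to 9.62 in healthy pools. The healthy pools also varied more, with a median SD over gene clusters of 0.124 log2, against 0.054 in treated and 0.054 in T2D control pools. The part of these technical differences in the results was not tested. Among the genes named here that rose, Lilrb4, Mmp12, Pla2g7, Top2a and Mir223 had a healthy mean under the healthy background mean of 3.52, and Acod1, Ccr2, Cd8b, Clec7a, Lpl, Mki67 and Tnf one less than 0.4 log2 above it, a margin chosen after seeing the data. For the first 5 the fold is a lower bound, written as at least, with each healthy array taken at its background mean where the gene lay under it. Hepatocyte markers were bright in every pool: Alb, which encodes albumin, averaged 12.61 in treated and 12.74 in healthy livers.

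The 12 largest rises included macrophage genes, an exporter, a chemokine and stearoyl-CoA desaturases. Gpnmb, a transmembrane glycoprotein of lipid-laden macrophages, read 10.43, 10.32 and 10.63 log2 in treated pools, 10.64, 10.32 and 10.40 in T2D control pools and 5.54, 5.52 and 5.91 in healthy pools. That is 27.9-fold higher in treated than in healthy livers (4.80 ± 0.13 log2, SE, adjusted p = 3.11e-06, limma). The treated and T2D control pools overlapped and no healthy pool came near them. Lilrb4, an inhibitory leukocyte receptor, read 7.71, 7.94 and 8.31 in treated against 3.37, 3.32 and 3.36 in healthy pools, at least 22.1-fold higher (adjusted p = 8.95e-06). Mmp12, the macrophage elastase, read 8.31, 7.45 and 8.24 in treated and 3.36, 3.59 and 3.20 in healthy pools, at least 22.3-fold higher (adjusted p = 5.54e-05). Abcb1b, an exporter of drugs and lipids of the P-glycoprotein family, read 9.68, 9.15 and 9.56 in treated, 9.82, 9.66 and 9.00 in T2D control and 5.09, 4.75 and 4.82 in healthy pools, a 23.9-fold difference. In all of these the treated and T2D control pools overlapped, and no difference between them passed the adjusted test.

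The others of the 12 largest rises were ordered by measured difference, an order that is uncertain where healthy signal lay beside background. Clec7a, a receptor for fungal beta-glucan, rose by 4.22, Lpl, a lipase that acts on circulating lipoproteins, by 4.15, and Spp1, the matrix cytokine osteopontin, by 3.86. The healthy means of Clec7a and Lpl were 3.91 and 3.72, just above background. Pla2g7, which degrades platelet-activating factor, was at least 16.2-fold higher. The stearoyl-CoA desaturases Scd2 and Scd rose by 3.63 and 3.27; as close relatives they can share probes, so their separate sizes are uncertain. Cxcl9, a chemokine that draws T cells, rose by 3.56 and Lcn2, a siderophore-binding acute phase protein, by 3.25. In all 12 the lowest treated pool lay above the highest healthy pool, as the rule for naming them asked.

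Of the 12 largest falls, 7 belonged to the making of sterols or its control by sterol level. Idi1, the isomerase that makes the allylic isoprene unit, read 4.01, 3.97 and 4.07 in treated, 4.06, 4.36 and 4.08 in T2D control and 9.02, 8.87 and 8.73 in healthy pools. It was 28.9-fold lower in treated livers (-4.85 ± 0.1, adjusted p = 7.2e-07), the largest fall of any gene that met the rule. Outside the sterol pathway, Akr1c2, an aldo-keto reductase of steroids, fell by 3.10 on the log2 scale. Inmt, a methyltransferase of indolethylamines, read 7.34, 5.91 and 7.28 in treated, 6.21, 5.71 and 5.33 in T2D control and 9.67, 9.21 and 9.72 in healthy pools. Ugt2a3, a glucuronosyltransferase, read 6.46, 6.47 and 6.13 in treated, 7.27, 7.44 and 7.10 in T2D control and 8.85, 9.09 and 9.05 in healthy pools, so treated livers lay farther from healthy than T2D control livers did. Stac3, known for its role in muscle excitation, read 4.37, 5.72 and 4.41 in treated and 7.76, 7.32 and 7.58 in healthy pools. Treated pool 2 stood above the other treated pools in Stac3 and below them in Inmt.

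**Figure D2:**
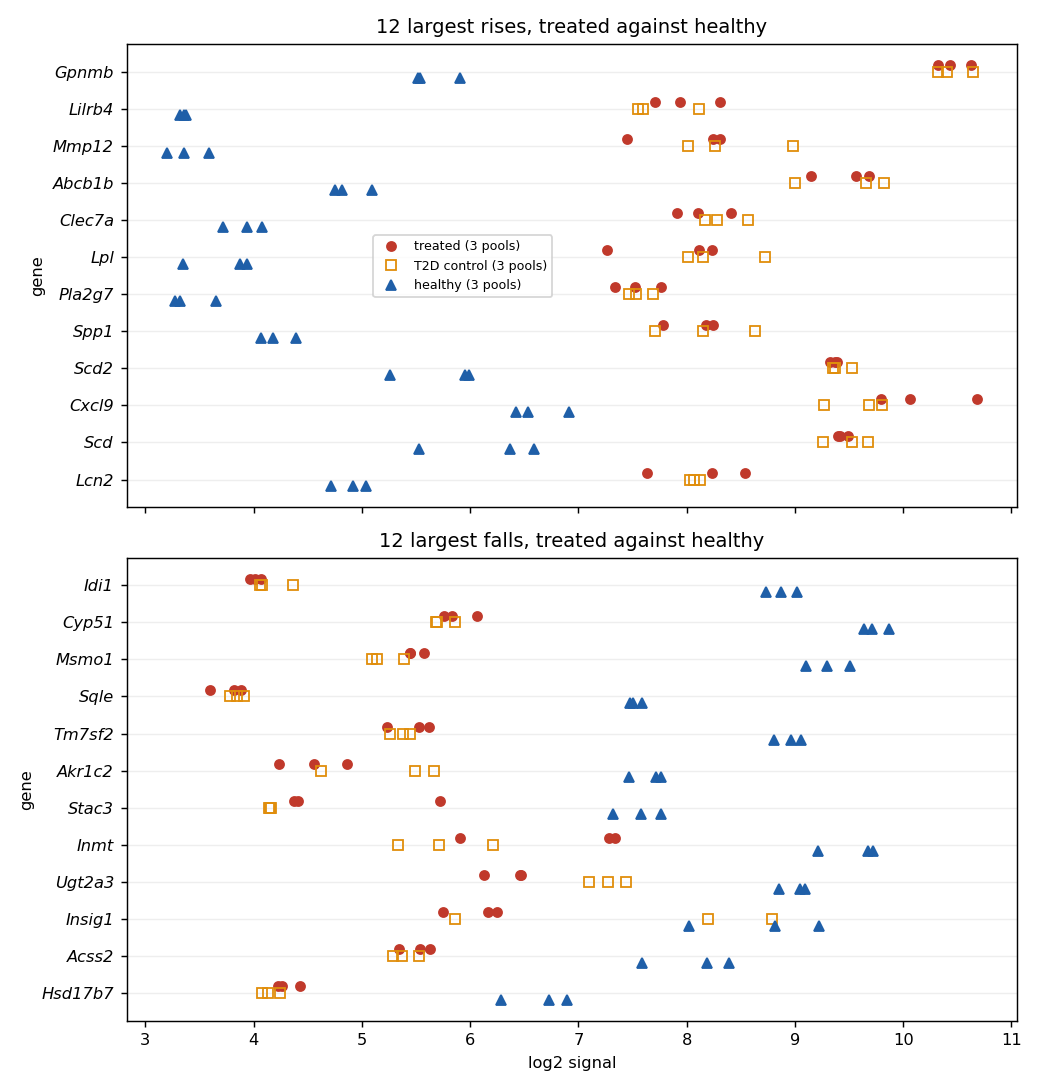
Log2 signal (horizontal axis) of the 12 largest rises (upper panel) and 12 largest falls (lower panel), with 1 row per gene and 1 point per pool: treated (filled red circles), T2D control (open orange squares) and healthy (filled blue triangles). Treated and healthy pools are separate in every row, as the rule for naming these genes asked. The T2D control points lie near the treated ones in most rows, with Insig1 as the widest spread.

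All 17 measured genes of sterol synthesis fell, 7 of 7 in the mevalonate part and 10 of 10 after squalene, where 24.8% of gene clusters fell. Their median difference was -2.09, from -4.85 in Idi1 to -0.49 in Nsdhl, against -0.11 over gene clusters, and 15 of them fell over 2-fold. In the mevalonate part, which builds isoprene units and joins them to squalene, Acat2, which condenses acetyl-CoA, fell by 2.29, Fdft1, squalene synthase, by 1.81, Pmvk by 1.43, Mvk by 1.27 and Mvd by 1.17 on the log2 scale. Fdps, which makes farnesyl diphosphate, fell least there, with 5.50, 5.50 and 5.44 in treated against 6.00, 6.16 and 5.86 in healthy pools.

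Sqle, the squalene epoxidase that opens the part after squalene, read 3.60, 3.88 and 3.82 in treated and 7.59, 7.50 and 7.48 in healthy pools (13.5-fold lower, adjusted p = 7.2e-07). Cyp51, the lanosterol demethylase, read 5.76, 6.06 and 5.83 in treated and 9.87, 9.64 and 9.71 in healthy pools. Msmo1, which oxidises the methyl groups of sterols, read 5.44, 5.57 and 5.44 in treated, 5.39, 5.14 and 5.09 in T2D control and 9.51, 9.10 and 9.30 in healthy pools. The sterol reductases Tm7sf2 and Dhcr7 fell by 3.49 and 2.16. Hsd17b7 fell by 2.33, the isomerase Ebp by 2.09, Lss, which closes the rings, by 1.73, and Sc5d by 1.30 on the log2 scale. The fall of Nsdhl was lost under median centring (adjusted p = 0.105) and without healthy pool 7 or treated pool 1, 2 or 3 (adjusted p = 0.0533 to 0.0742). Against T2D control the 17 genes had a median difference of 0.14, from -0.14 to 0.45, and 0 passed the adjusted test, by limma; 3 had an unadjusted p under 0.05, all higher in treated livers (Lss, Ebp and Msmo1). Over gene clusters 4.85% had such a p in this comparison, 2.46% higher and 2.38% lower.

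Promoters were read because the sterol genes moved together. RefSeq windows on GRCr8 (250 bases before to 50 after the gene start) were found for 14 of the 17 genes and searched on both strands. The sterol response element, spelled TCACNCCAC, was in 0 of the 14 windows and in 1.12% of all 33469 windows. The NF-Y box, spelled CCAAT, was in 11 of 14 (78.6%), against 37.5% of all windows. A match is only a run of letters and not a bound site. Each element was searched in a single spelling, so a site spelled otherwise would be missed, and no match does not show that a gene lacks the element. Shown are the 250 bases before the start of 3 genes that fell over 2-fold and carry the box, 5′ to 3′ on the strand of the gene, with CCAAT or its reverse complement ATTGG in capitals; Idi1 lies on chr17:66547525-66547774 (minus strand), Msmo1 on chr16:29746863-29747112 (plus strand) and Hsd17b7 on chr13:84722755-84723004 (minus strand).
Idi1: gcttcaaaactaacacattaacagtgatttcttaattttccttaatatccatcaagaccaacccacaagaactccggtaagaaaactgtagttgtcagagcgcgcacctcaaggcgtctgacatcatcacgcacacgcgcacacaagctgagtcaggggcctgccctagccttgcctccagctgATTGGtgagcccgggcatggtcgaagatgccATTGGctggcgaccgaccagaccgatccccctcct
Msmo1: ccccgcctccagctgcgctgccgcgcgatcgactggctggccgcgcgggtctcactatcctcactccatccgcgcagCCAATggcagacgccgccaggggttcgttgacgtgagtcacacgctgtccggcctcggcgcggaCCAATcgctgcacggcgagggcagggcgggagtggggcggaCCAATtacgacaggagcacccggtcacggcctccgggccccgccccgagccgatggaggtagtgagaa
Hsd17b7: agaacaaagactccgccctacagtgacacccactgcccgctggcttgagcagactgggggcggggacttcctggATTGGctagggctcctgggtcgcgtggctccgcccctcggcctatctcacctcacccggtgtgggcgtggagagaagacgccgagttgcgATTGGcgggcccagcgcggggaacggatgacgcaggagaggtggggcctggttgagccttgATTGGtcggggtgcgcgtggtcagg
The 2 boxes of Idi1 begin 66 and 35 bases before the start, and the 3 of Msmo1 and the 3 of Hsd17b7 lie between 176 and 25 bases before it.

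**Figure D3:**
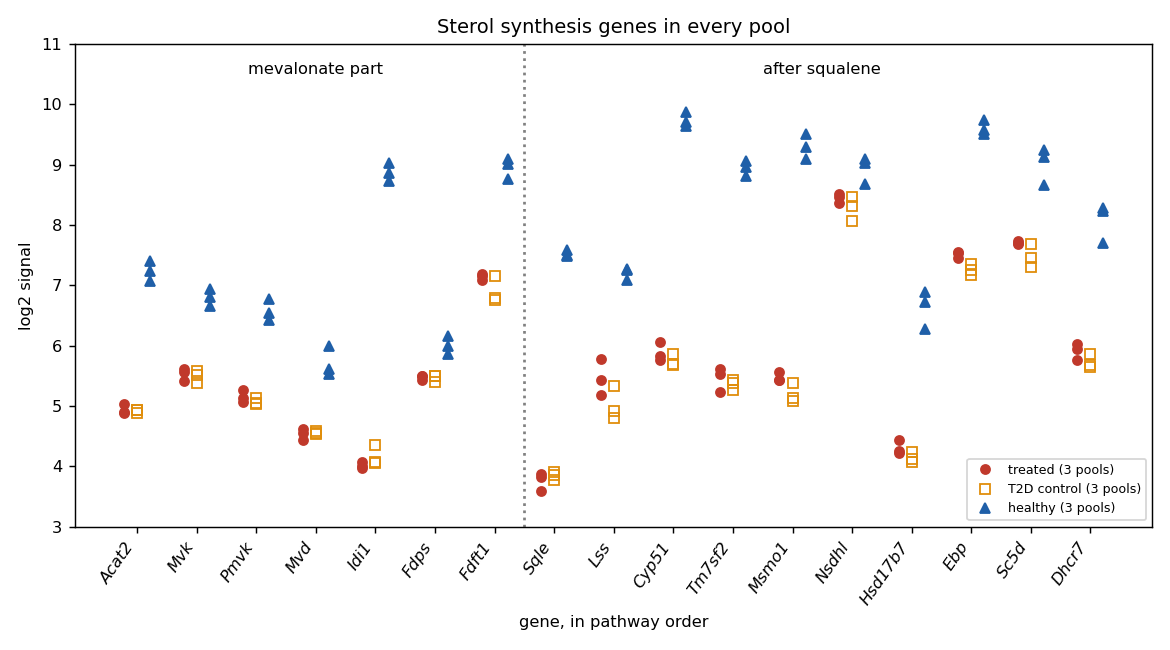
Log2 signal (vertical axis) of the 17 measured sterol synthesis genes in pathway order (horizontal axis), with 1 point per pool for treated (filled red circles), T2D control (open orange squares) and healthy livers (filled blue triangles). In every gene the 3 treated pools lie under the 3 healthy pools, and treated and T2D control pools lie close together. Treated and healthy pools do not overlap, in either direction, in 55.2% of all gene clusters.

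Genes that sense sterol were mixed. Insig1, which holds back SREBP when sterols are plentiful, read 6.25, 6.16 and 5.75 in treated, 5.86, 8.79 and 8.20 in T2D control and 8.82, 8.02 and 9.22 in healthy pools. Its fall of 2.63 ± 0.67 (adjusted p = 0.0186) was lost without healthy pool 7 or treated pool 2 or 3 (adjusted p = 0.0519 to 0.0647), and T2D control pool 4 lay with the treated pools. Srebf2, the SREBP of sterol genes, fell by 0.64 and Stard4, a sterol carrier, by 0.63 on the log2 scale. Mylip, which marks the LDL receptor for breakdown, rose by 0.61, and the SREBP protease Mbtps2 by 0.58. Scap, which carries SREBP, differed by -0.18, with no call. In all, 3 of 8 rose and 3 fell.

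Genes of sterol export rose more often than they fell. Of 12 genes around the liver X receptor, 6 rose (15.0% of gene clusters did) and 1 fell, with a median of 0.34. Abcg1, which exports cholesterol to lipoproteins, read 7.79, 7.63 and 7.74 in treated, 7.74, 7.55 and 7.52 in T2D control and 5.44, 5.19 and 5.15 in healthy pools (5.51-fold, adjusted p = 1.02e-05). Abca1, which loads nascent HDL, read 9.13, 9.00 and 9.34 in treated and 7.23, 6.59 and 7.45 in healthy pools. Soat1, which esterifies cholesterol for storage, rose by 2.42 ± 0.098, and was lower in treated than in T2D control livers by 0.30 (unadjusted p = 0.0152, not passing adjustment). The hepatocyte form Soat2 fell by 0.30 on the log2 scale, a call lost under median centring (-0.17, adjusted p = 0.158) and without healthy pool 7 or 8 or treated pool 2 or 3 (adjusted p = 0.0503 to 0.0922). Abcg5, which sends sterols into bile, rose by 0.85, while Abcg8 of the same group differed by 0.37, with no call (adjusted p = 0.0955, limma). Apoe differed by 0.07 (95% interval -0.07 to 0.22).

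Of 16 measured genes of fatty acid synthesis 4 rose and 8 fell, with a median of -0.45. Scd read 9.40, 9.49 and 9.42 in treated and 6.37, 5.53 and 6.59 in healthy pools, and Scd2 9.37, 9.32 and 9.39 in treated and 5.95, 5.26 and 5.99 in healthy pools. Acss2, which makes acetyl-CoA from acetate, read 5.54, 5.63 and 5.34 in treated and 8.39, 7.59 and 8.19 in healthy pools (5.86-fold lower). Acly, which makes it from citrate, fell by 1.55, the fatty acid desaturases Fads1 and Fads2 by 1.77 and 0.76, and the elongase Elovl6 by 1.35 on the log2 scale. Fads2 lost its call without treated pool 3 (adjusted p = 0.0507). Fasn, the fatty acid synthase, fell by 1.04 ± 0.33 (adjusted p = 0.0428), a call lost under median centring (adjusted p = 0.086) and without healthy pool 7 or 9 or treated pool 1, 2 or 3 or T2D control pool 4, 5 or 6 (adjusted p = 0.0612 to 0.126). The transcription factors of the route rose: Srebf1 by 0.88 and Mlxipl, the carbohydrate response factor, by 0.69.

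In triglyceride storage 7 of 22 rose and 5 fell. Lpl, a lipase that in healthy livers read near the background probe sets, read 8.11, 7.26 and 8.23 in treated, 8.72, 8.01 and 8.15 in T2D control and 3.94, 3.87 and 3.35 in healthy pools. Fabp4, a fatty acid carrier of macrophages and fat cells, rose by 1.33 and Plin2, which coats lipid droplets, by 1.27. G0s2, which inhibits lipolysis, fell by 1.31 on the log2 scale. In fatty acid oxidation 4 of 19 rose (21.1%) and 3 fell (15.8%), where 15.0% and 24.8% of gene clusters did, with a median of 0.01. The mean level of this group was 8.53 to 8.80 in treated pools. Among gene clusters from 8 to 14 log2, 26.4% rose and 30.3% fell. Ppara, the nuclear receptor that switches oxidation on, read 8.29, 8.34 and 8.34 in treated, 8.47, 8.27 and 8.24 in T2D control and 6.98, 6.72 and 7.23 in healthy pools (2.54-fold, adjusted p = 0.000202). Its target Cyp4a1 rose by 1.02 while Cyp4a2 differed by 0.01 (95% interval -0.15 to 0.18). Acads, the short-chain dehydrogenase, fell by 0.80 on the log2 scale.

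Of 8 genes of glucose output and insulin response that the study discusses, chosen by the study on these samples and so no independent evidence, 2 rose, 1 fell and 5 passed no test against healthy. Slc37a4, which moves glucose 6-phosphate into the endoplasmic reticulum, read 6.88, 6.84 and 6.82 in treated, 6.63, 6.66 and 6.56 in T2D control and 7.23, 7.44 and 7.15 in healthy pools, and fell by 0.43 ± 0.078 (adjusted p = 0.00445). Pdk4, which shuts pyruvate out of the citric acid cycle, read 7.16, 6.92 and 7.39 in treated, 7.83, 8.78 and 8.48 in T2D control and 7.34, 7.00 and 7.54 in healthy pools. Its difference from healthy was -0.14 (95% interval -0.70 to 0.42), and from T2D control -1.21 (unadjusted p = 0.00101). Treated pools thus lay with healthy pools and not with T2D control pools, though the second difference did not pass adjustment (adjusted p = 0.216).

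Igfbp1, an IGF-binding protein that insulin represses, read 9.72, 9.05 and 9.65 in treated, 10.15, 11.19 and 10.34 in T2D control and 8.53, 8.14 and 8.60 in healthy pools. It rose by 1.05 ± 0.29 (adjusted p = 0.0241), a call lost under quantile normalization (adjusted p = 0.0532) and without healthy pool 8 or treated pool 1 or 3 (adjusted p = 0.0777 to 0.0822). Ppargc1a, a coactivator of glucose production, read 5.10, 5.10 and 5.10 in treated, 5.10, 6.66 and 7.29 in T2D control and 4.25, 4.22 and 4.90 in healthy pools (0.64 against healthy, adjusted p = 0.298, and -1.25 against T2D control, unadjusted p = 0.0292). Irs2, the insulin receptor substrate, read 5.99, 5.93 and 5.99 in treated, 6.01, 7.30 and 7.13 in T2D control and 5.31, 4.99 and 5.83 in healthy pools. For these 3 genes the treated mean lay between the other groups' means. In Ppargc1a and Foxo3 the 3 treated pools and T2D control pool 4 carry the same deposited value. In 10.4% of gene clusters all 3 treated pools or all 3 healthy pools share 1 value. Their treated spread therefore reads 0, and the origin of these repeats was not tested. Foxo1, the transcription factor that insulin keeps out of the nucleus, differed from healthy by 0.70 (adjusted p = 0.112). Foxo3 rose by 0.40 (adjusted p = 0.0397), a call lost under quantile normalization (adjusted p = 0.0811) and without healthy pool 7 or 8 or treated pool 1, 2 or 3 or T2D control pool 5 or 6 (adjusted p = 0.0529 to 0.113). G6pc1, the glucose 6-phosphatase, read 8.62, 8.47 and 8.47 in treated, 7.86, 8.47 and 6.66 in T2D control and 9.66, 8.56 and 9.30 in healthy pools, with the widest spread in T2D control pools. Pck1, the cytosolic carboxykinase, differed by -0.14 (95% interval -0.56 to 0.28).

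**Figure D4:**
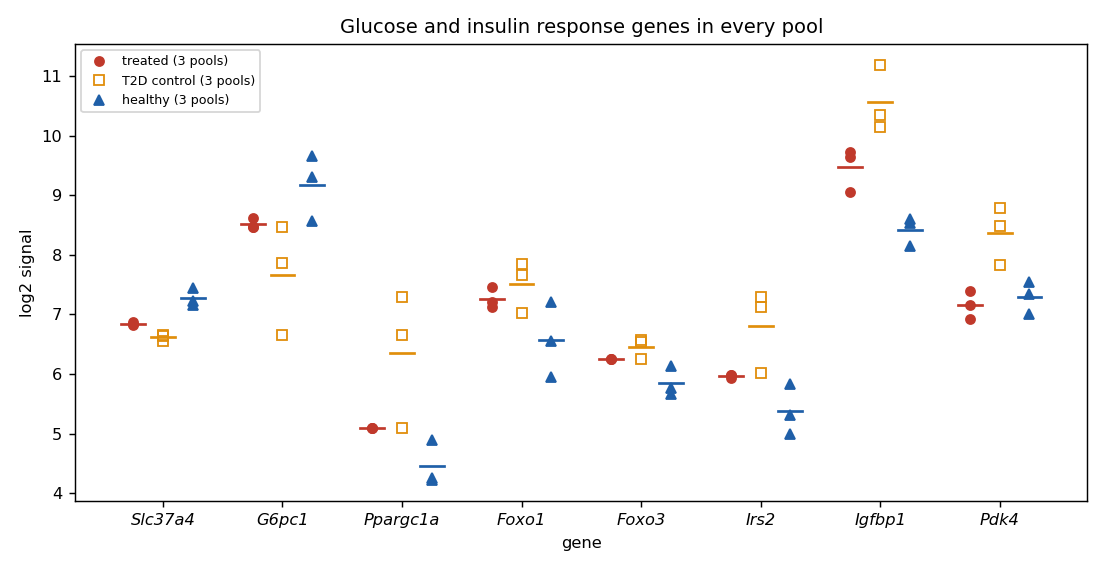
Log2 signal (vertical axis) of the 8 genes of glucose and insulin response that the study discusses, with 1 point per pool for treated (filled red circles, left), T2D control (open orange squares, middle) and healthy livers (filled blue triangles, right), and a bar at each group mean. In Pdk4 the treated pools lie beside the healthy ones, while in Igfbp1 they lie between the T2D control and healthy pools.

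Glycolysis stood higher: 13 of 23 genes rose and 1 fell, with a median of 0.36. Pkm, the pyruvate kinase of non-hepatocyte cells, read 6.86, 7.42 and 7.04 in treated and 5.29, 5.45 and 5.41 in healthy pools (3.31-fold). Hk3, a hexokinase of leukocytes, rose by 1.25 and Slc2a1, the glucose carrier of most cells, by 0.89. The hepatocyte pyruvate kinase Pklr rose by 0.71, a call lost without healthy pool 8 or treated pool 1 or 2 (adjusted p = 0.0544 to 0.0675), and Gapdh by 0.70 (95% interval 0.51 to 0.89). Marker lists of macrophages and of neutrophils and monocytes also rose more often than gene clusters did, while the lymphocyte list lay near them, as given below. Any part of such cells in the glycolysis values was not tested. In the citric acid cycle and pyruvate entry 6 of 23 rose and 3 fell: Ogdh rose by 0.85, and Pdk1 and Sdhd fell by 0.96 and 0.74 on the log2 scale. In gluconeogenesis 2 of 10 rose and 3 fell.

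In the insulin and IGF group 6 of 18 rose and 1 fell. Gsk3b, which brakes glycogen synthesis, rose by 0.73, and Igfals, which carries IGF in blood, fell by 0.61 on the log2 scale. Insr and Akt2 differed by 0.29 and 0.03, with no call. Of 16 genes that follow growth hormone or sex, 3 rose and 5 fell. Cyp2c12, which is female-typical in rat liver, read 8.81, 8.34 and 8.21 in treated, 9.35, 8.34 and 8.35 in T2D control and 5.51, 6.31 and 5.99 in healthy pools of male rats (5.72-fold, adjusted p = 0.000837). The male-typical Cyp2c13 fell by 0.46, and Ghr, the growth hormone receptor, by 0.45 on the log2 scale, while male-typical Cyp2c11 differed by -0.21 (adjusted p = 0.0554). The Cyp2c genes are close relatives and can share probes.

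The markers of lipid-associated macrophages rose nearly as a whole. Of 17 markers 16 rose (15.0% of gene clusters did) and 0 fell, with a median of 2.27. Their mean log2 level was 7.13 to 7.45 in treated, 7.24 to 7.67 in T2D control and 4.65 to 4.73 in healthy pools. Whole liver was measured, so more cells of a type and more RNA per cell cannot be told apart. Lgals3, a galactose-binding lectin, rose by 2.55, Cd68, a lysosomal protein of phagocytes, by 2.27, Fabp5 by 2.18 and Itgax, an integrin of dendritic cells and macrophages, by 1.80. Trem2, the lipid receptor that defines these cells, read 5.48, 4.57 and 5.09 in treated and 4.34, 4.41 and 4.23 in healthy pools. Its rise of 0.72 ± 0.21 (adjusted p = 0.03) was lost without healthy pool 7, 8 or 9 or treated pool 1 or 3 (adjusted p = 0.0606 to 0.0866). Atp6v0d2 differed by 0.90 (adjusted p = 0.0824) and was the member that passed no test. Against T2D control 0 of the 17 passed the adjusted or the unadjusted test, by limma.

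Kupffer cell markers, those of the resident macrophages, rose in 8 of 13 and fell in 1, with a median of 0.79. Csf1r, the receptor for macrophage growth factor, rose by 1.85, Folr2 by 1.52, Adgre1 by 1.20 and Cd163, the hemoglobin scavenger receptor, by 1.08. Clec4f, the lectin that marks resident Kupffer cells in rodents, went the other way: it read 8.55, 8.81 and 8.97 in treated, 9.10, 9.19 and 9.05 in T2D control and 9.17, 9.48 and 9.41 in healthy pools (-0.57 ± 0.12, adjusted p = 0.00728). Vsig4 and Timd4, other markers of resident cells, differed by -0.39 and 0.33 with no call. Among markers of neutrophils and monocytes 8 of 17 rose and 0 fell. Itgam, an integrin of myeloid cells, read 6.81, 7.19 and 6.74 in treated, 6.55, 6.32 and 6.72 in T2D control and 4.33, 4.46 and 4.49 in healthy pools, and Ccr2, the monocyte chemokine receptor, 5.30, 5.79 and 5.29 in treated, 5.19, 4.78 and 4.66 in T2D control and 3.33, 4.23 and 3.68 in healthy pools. In both, treated livers lay above T2D control livers as well (unadjusted p = 0.0215 and 0.0423, with 0 passing adjustment by limma). The neutrophil granule genes Mpo, Elane and S100a8 differed by -0.14, -0.18 and 0.03, with no call.

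Of 18 lymphocyte markers 3 rose, near the 15.0% of all gene clusters, and 0 fell, with a median of 0.06. Cd4, which rat macrophages also carry, rose by 1.52, Cd8b by 2.21 and Cd8a by 0.75. The T cell receptor chains Cd3e, Cd3d and Cd3g and the B cell gene Ms4a1 were dim in treated livers, at 3.60, 3.00, 2.80 and 2.20 log2, and were not called.

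Antigen presentation by MHC class II rose in 8 of 10 genes, with a median of 1.61. RT1-Da, an alpha chain of the rat complex, read 9.67, 9.84 and 10.12 in treated, 9.60, 9.25 and 9.64 in T2D control and 7.07, 7.29 and 6.77 in healthy pools. Cd74, the chain that guides the complex, rose by 2.75 and Ciita, its master regulator, by 0.76. MHC genes are polymorphic relatives whose probes can overlap. Treated livers exceeded T2D control livers at an unadjusted p under 0.05 in 5 of the 10 (2.46% of gene clusters), and in 0 after adjustment.

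Chemokines and their receptors rose in 13 of 24 and fell in 0, with a median of 0.45. Cxcl9 read 9.79, 10.68 and 10.06 in treated, 9.27, 9.68 and 9.80 in T2D control and 6.91, 6.42 and 6.53 in healthy pools. Ccl3, an attractant of macrophages, rose by 2.88, Ccl2, the main monocyte attractant, by 1.97, and Cxcl16 by 1.44. In the cytokine and NF-kB group 16 of 22 rose and 0 fell, with a median of 0.50. Acod1, which makes itaconate in activated macrophages, read 5.56, 6.81 and 6.82 in treated, 5.13, 5.09 and 5.14 in T2D control and 3.69, 3.63 and 3.39 in healthy pools. Tnfaip3, a brake on NF-kB, rose by 2.02, Tgfb1 by 1.69, Nos2, the inducible nitric oxide synthase, by 1.33, and Tnf by 1.10. Il6 and Ifng lay under the background probe mean in treated livers, with means of 1.69 and 1.83.

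The interferon response was uneven, with 6 of 26 higher, 2 lower and a median of 0.01. The guanylate-binding proteins Gbp2 and Gbp5, induced mostly by type II interferon, rose by 2.59 and 2.39. Gbp2 read 8.46, 8.77 and 8.73 in treated, 7.81, 7.84 and 7.84 in T2D control and 5.86, 6.13 and 6.20 in healthy pools. Oas1a and Ifi27, better known from type I interferon, fell by 1.08 and 0.85 on the log2 scale, and Usp18 and Mx2 differed by -0.95 and -0.72 with no call. The gamma-activated site, spelled TTCNNNGAA and the same on both strands, was in 5 of 21 promoter windows of the interferon group. In the chemokine group it was in 5 of 20, against 8.87% of all windows. Genes with a match were not only those that rose: Gbp2 and Gbp5 had 0 matches, while Oas1a, which fell, had 1. Cxcl9 had 1.

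Matrix and vessel cells also read higher. Of 20 genes of stellate cells and matrix 13 rose and 0 fell, with a median of 0.72. Vim, the filament protein of mesenchymal cells and leukocytes, read 8.67, 9.21 and 8.96 in treated, 9.05, 8.79 and 8.84 in T2D control and 6.05, 5.79 and 5.92 in healthy pools. Acta2, the actin of activated stellate cells, rose by 1.09, Dcn, the proteoglycan decorin, by 1.41, Sparc by 1.34 and Timp1, an inhibitor of matrix proteases, by 0.82. Lrat, which stores retinol in quiescent stellate cells, averaged 6.98 in treated and 6.98 in healthy livers. Among 17 collagens 5 rose and 2 fell, Col3a1 by 1.08, Col1a2 by 0.84 and Col14a1 by 0.96 upward, while Col1a1 differed by 0.41 (adjusted p = 0.0565) and Col4a1 by 0.12. Of 17 proteases and inhibitors 9 rose and 1 fell, led by Plau, the urokinase, with 1.49.

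Sinusoidal endothelial markers rose in 12 of 16 and fell in 0, with a median of 0.68: Cdh5, the junction cadherin, by 1.44, Clec4g by 1.20 and the scavenger receptor Stab2 by 1.01. Bile duct markers were mixed: 1 of 11 rose (9.09%) and 3 fell (27.3%), where 15.0% and 24.8% of gene clusters did. Sctr, the secretin receptor, read 6.42, 6.33 and 6.64 in treated against 4.31, 4.28 and 4.60 in healthy pools, and Krt19 differed by -0.04. Hepatocyte markers rose in 1 of 19 (5.26%) and fell in 6 (31.6%), beside the same shares of gene clusters, with a median of -0.13. Their mean level was 10.50 to 10.52 in treated against 10.57 to 10.65 in healthy pools. Apob rose by 0.84, a call lost without treated pool 1, 2 or 3 (adjusted p = 0.0552 to 0.0695), while Apoh and Ambp fell by 0.55 and 0.63 on the log2 scale. Markers of tissue that could be cut with the liver were low: those of exocrine pancreas had a mean level of 3.45 to 3.52 in treated and 3.63 to 3.69 in healthy pools, with 4 of 9 lower, and those of fat cells 3.97 to 4.19 in treated and 4.35 to 4.58 in healthy pools, with 4 of 7 lower. The part of any change in cell makeup in the results above was not tested.

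**Figure D5:**
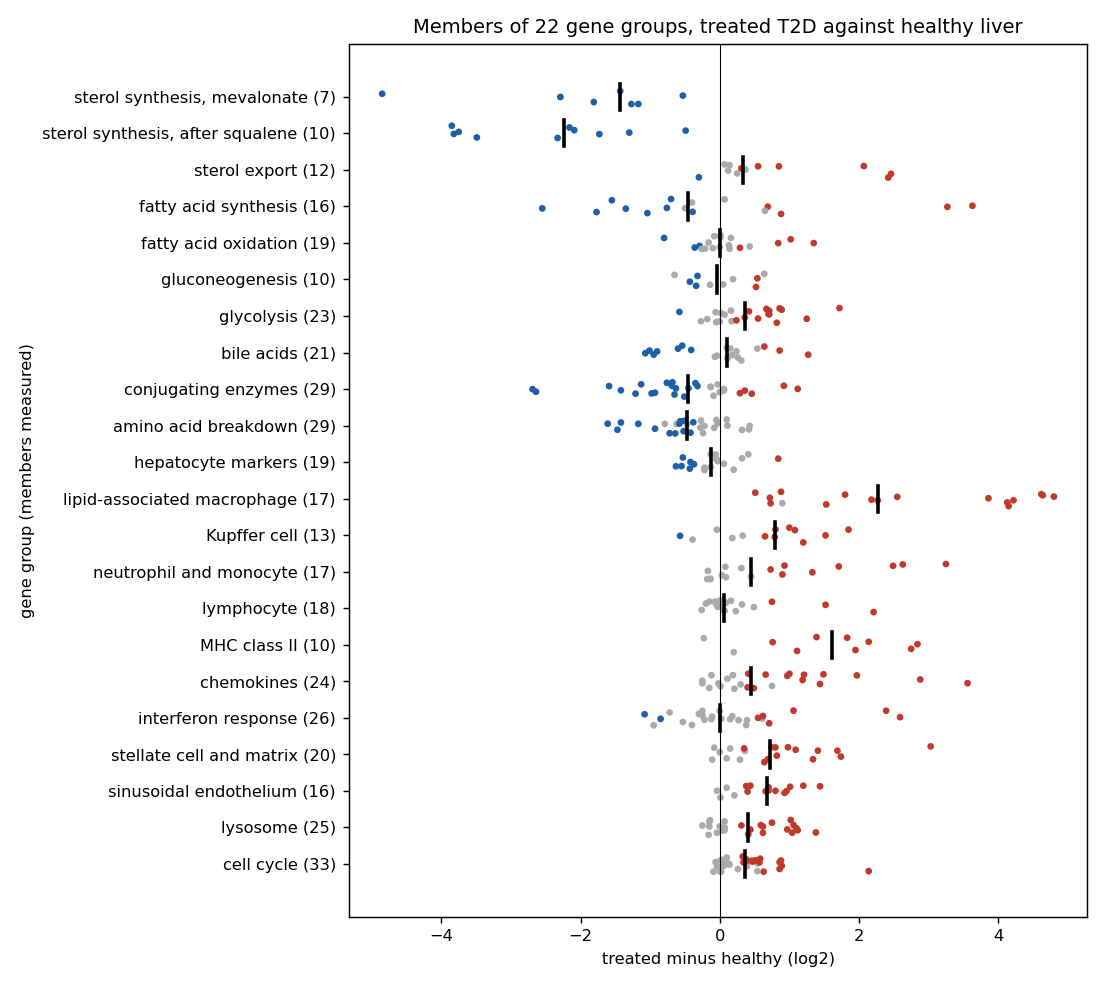
Difference of treated minus healthy log2 signal (horizontal axis) of the measured members of 22 gene groups, with 1 point per gene, red where it rose, blue where it fell and grey where not called, and a black bar at the median of each group. The sterol synthesis groups lie left of 0 and the lipid-associated macrophage and MHC class II groups lie right of it, while the hepatocyte group straddles 0.

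Of 29 conjugating enzymes of drug metabolism 5 rose and 17 fell (24.8% of gene clusters did), with a median of -0.45. The sulfotransferase Sult2a6 read 8.30, 8.48 and 8.60 in treated, 8.07, 7.76 and 8.20 in T2D control and 9.87, 10.28 and 10.01 in healthy pools, and the glutathione transferase Gsta2 9.63, 9.52 and 9.96 in treated, 9.96, 10.06 and 10.06 in T2D control and 11.10, 11.06 and 11.22 in healthy pools. Gstk1 and Ephx1, the microsomal epoxide hydrolase, rose by 1.12 and 0.92. In 12 of the 29 the treated and T2D control livers differed at an unadjusted p under 0.05 (4.85% of gene clusters), and in 0 after adjustment. Of the 12, 10 were lower and 2 higher in treated livers. Of 28 cytochromes and their regulators 6 rose (21.4%) and 8 fell (28.6%), where 15.0% and 24.8% of gene clusters did. With a mean level of 9.39 to 9.55 in treated pools, they are bright, and 26.4% of gene clusters from 8 to 14 log2 rose. Cyp3a9 read 7.29, 7.26 and 6.60 in treated and 9.02, 9.54 and 9.30 in healthy pools, and Cyp3a62 rose by 1.42. Cyp2b1, the classical phenobarbital-induced form, read 8.93, 8.56 and 9.60 in treated, 10.24, 11.50 and 11.30 in T2D control and 9.46, 8.76 and 9.49 in healthy pools, so treated pools lay with healthy ones (-0.20, 95% interval -1.08 to 0.67). Near-identical family members can share probes here too. Of 11 ABC exporters 7 rose and 0 fell, Abcc5 by 1.37 and Abcc3 by 0.86 after Abcb1b.

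In bile acid synthesis and transport 3 of 21 rose (14.3%) and 7 fell (33.3%), where 15.0% and 24.8% of gene clusters did. Cyp7a1, the rate-limiting enzyme of synthesis from cholesterol, read 10.81, 10.61 and 10.75 in treated, 11.19, 11.42 and 11.57 in T2D control and 9.50, 9.07 and 9.79 in healthy pools. It was 2.41-fold higher in treated than in healthy livers (adjusted p = 0.00131) and lay below T2D control by 0.67 (unadjusted p = 0.00415, adjusted p = 0.41). Slc27a5, which links bile acids to coenzyme A, and Hsd3b7 fell by 1.07 and 0.90 on the log2 scale. Cyp8b1, which sets the cholic acid share, fell by 1.01, a call lost without healthy pool 7 or 8 or treated pool 2 or 3 (adjusted p = 0.0612 to 0.0746). The uptake carriers Slc10a1 and Slco1b2 fell by 0.54 and 0.60. Nr0b2 and Nr1h4, the receptors that repress synthesis when bile acids are plentiful, were not called.

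Amino acid breakdown fell in 13 of 29 genes and rose in 0, with a median of -0.47. Oat, which degrades ornithine, read 7.70, 7.49 and 7.74 in treated and 9.52, 8.89 and 9.34 in healthy pools. Gnmt, which uses up methyl groups on glycine, fell by 1.47, Prodh2 by 1.42 and Agxt, which clears glyoxylate, by 1.17 on the log2 scale. Tat, a classical target of glucocorticoid and glucagon, differed by 0.32, with no call. In the urea cycle and glutamine group 1 of 10 rose, the glutamine synthetase Glul by 0.76 (not called under quantile normalization). In that group 3 fell (30.0%, where 24.8% of gene clusters did). Arg1, which frees urea, averaged 9.97 in treated and 9.97 in healthy livers.

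Of 27 genes of the unfolded protein and integrated stress responses 8 rose and 1 fell: the sensors Atf6 and Eif2ak3 rose by 1.02 and 0.84, and Asns, which makes asparagine, by 0.72. The classical targets Ddit3 and Psat1 were not called against healthy. Ddit3 read 5.59, 5.82 and 5.75 in treated, 5.99, 6.97 and 7.28 in T2D control and 5.62, 5.82 and 5.47 in healthy pools. In 11 of the 27 treated livers lay below T2D control at an unadjusted p under 0.05 (2.38% of gene clusters) and in 0 above it. After adjustment 0 passed. Among 27 antioxidant genes 9 rose and 8 fell. Akr1b8, an aldo-keto reductase, and Hmox1, which degrades heme, rose by 1.86 and 1.05, while Prdx4 and Gpx4, which remove peroxides, fell by 1.35 and 1.14 on the log2 scale. Gclc, which opens glutathione synthesis, rose by 0.85. Of 20 immediate early genes 1 rose and 2 fell, and 8 lay below T2D control at an unadjusted p under 0.05 (2.38% of gene clusters). Jun read 6.64, 6.14 and 6.31 in treated, 7.28, 8.60 and 7.52 in T2D control and 6.15, 7.09 and 6.24 in healthy pools.

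Secreted liver proteins were mixed. Of 27 complement and clotting genes 4 rose (14.8%) and 7 fell (25.9%), where 15.0% and 24.8% of gene clusters did, with a median of -0.14. These genes are bright, with a mean level of 9.95 to 10.11 in treated pools. Among gene clusters from 8 to 14 log2, 26.4% rose and 30.3% fell. F5 rose by 0.95, and F2, prothrombin, and F13b fell by 0.70 and 0.69 on the log2 scale. Of 21 acute phase and iron genes 6 rose and 3 fell. Lbp, which presents bacterial lipopolysaccharide, read 11.26, 11.67 and 11.30 in treated, 11.39, 11.40 and 11.42 in T2D control and 9.24, 10.01 and 9.29 in healthy pools, and Ftl1, ferritin light chain, rose by 1.05. Apcs, serum amyloid P, fell by 1.42 on the log2 scale, while Hp and A2m differed by 0.09 and 0.12, with no call. Hamp, the iron hormone hepcidin, differed by 0.77 (adjusted p = 0.0828).

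Lysosome genes rose in 14 of 25 and fell in 0, with a median of 0.41: the cathepsins Ctsz, Ctss, Ctsd and Ctsb by 1.38, 1.04, 1.02 and 0.97, and Psap, the precursor of lipid-degrading cofactors, by 1.12. Among 33 cell cycle genes 15 rose and 0 fell, with a median of 0.36. Mki67, a marker of dividing cells, read 5.16, 6.67 and 5.88 in treated, 5.50, 5.16 and 5.06 in T2D control and 3.72, 3.82 and 3.75 in healthy pools, the highest in treated pool 2, and Ccnd1, cyclin D, rose by 0.86. Top2a rose at least 1.15-fold, a call lost without healthy pool 7, 8 or 9 or treated pool 3 (adjusted p = 0.0534 to 0.0598), and Cdk1 and Pcna differed by 0.10 and -0.04. Of 18 clock genes 9 rose and 0 fell. Per3, a repressor of the clock, read 6.03, 6.31 and 5.95 in treated, 5.97, 5.71 and 5.59 in T2D control and 4.60, 4.57 and 4.20 in healthy pools, Per2 rose by 1.20 and Bhlhe41 by 1.55, while Bmal1, the activator that peaks opposite to them, differed by -0.76 (adjusted p = 0.155). The hour at which the livers were taken in each group is not given in the sources used here.

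MicroRNA loci were mostly dim. Of 402 clusters annotated as miRNA, 33 rose and 91 fell, 7 and 2 of them over 2-fold, and 360 had a mean log2 signal under 5. The array reads RNA that covers the locus, precursor included, and not the mature miRNA alone. The following were chosen after their values were seen, for a rise at an adjusted p under 0.05 and a known liver or myeloid role. Mir147 read 6.38, 7.21 and 7.31 in treated, 6.48, 6.38 and 6.48 in T2D control and 4.91, 4.28 and 4.48 in healthy pools (2.41 ± 0.24, adjusted p = 0.000345). Mir223, the miRNA of myeloid cells, read 3.85, 3.58 and 4.02 in treated and 2.00, 2.82 and 2.02 in healthy pools, at least 1.23-fold higher (adjusted p = 0.0015). Mir122, the most abundant hepatocyte miRNA, read 6.15, 6.49 and 5.86 in treated and 4.23, 3.74 and 5.51 in healthy pools (1.67 ± 0.43, adjusted p = 0.0179), a call lost without healthy pool 7 or 8 or treated pool 2 (adjusted p = 0.0535 to 0.0662). Mature sequences from RefSeq (GRCr8) are shown 5′ to 3′ with the seed, bases 2 to 8, in capitals, at chr3:130176322-130176343, chrX:65151450-65151470 and chr18:61028831-61028852, all on the plus strand.
rno-miR-147: gUGUGCGGaaaugcuucugcua
rno-miR-223-3p: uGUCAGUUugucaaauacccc
rno-miR-122-5p: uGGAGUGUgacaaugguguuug
No 2 of the 3 share a seed.

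Few genes passed the test between treated and T2D control livers, which does not show that the others were alike. Of 23446 gene clusters 3 (0.0128%) passed the adjusted test between the 2 T2D groups. The count was 0 without treated pool 3, T2D control pool 6 or healthy pool 7 or 8, 14 without healthy pool 9 and 76 without T2D control pool 4. Slc20a1, a sodium phosphate carrier, read 6.55, 6.16 and 6.37 in treated, 7.96, 8.49 and 8.01 in T2D control and 4.82, 4.61 and 4.79 in healthy pools. It was lower in treated than in T2D control livers (-1.80 ± 0.15, adjusted p = 0.0163) yet still 3.07-fold higher than in healthy livers (adjusted p = 0.000251). Igkvl15, an immunoglobulin kappa variable gene, read 4.33, 4.30 and 4.37 in treated, 5.06, 4.91 and 5.10 in T2D control and 4.17, 4.20 and 4.10 in healthy pools. Maff, a small Maf transcription factor, read 4.22, 4.09 and 4.07 in treated, 4.75, 4.88 and 4.70 in T2D control and 4.32, 4.32 and 4.29 in healthy pools. In Igkvl15 and Maff the treated level did not pass the test against healthy (0.18, 95% interval 0.03 to 0.33, and -0.18, 95% interval -0.33 to -0.03).

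A large share of the brighter genes lay close to healthy. Of 8945 gene clusters with a mean log2 of at least 5, 4856 (54.3%) had a 95% interval of the difference that stayed within 1.5-fold of the healthy mean. Among them were Cat, the catalase, with a difference of -0.02 (95% interval -0.16 to 0.11), Fbp1, the fructose bisphosphatase of gluconeogenesis, with 0.05 (-0.13 to 0.23), and Rbp4, the retinol carrier, with -0.06 (-0.17 to 0.05), all chosen as examples after their values were seen. Of the same 8945 clusters 2732 rose and 2111 fell, so some were both called and within 1.5-fold. The intervals take 1 spread for all groups, while the median SD here was 0.131 in healthy and 0.065 in treated pools. They can thus be too narrow and the 54.3% too high.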

How the data were processed

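Liver RNA of treated T2D, T2D control and healthy rats was measured on 9 whole-transcript rat arrays, 3 pools of 3 animals for each group. After scanning, the authors used RMA in the Transcriptome Analysis Console 4.0.2, and the deposited values are log2 signals, 1 per transcript cluster. RMA scales arrays to a common distribution, so differences are relative to the other genes of an array. The number of arrays and pools limits the precision. The 9 columns were assigned to pools from the sample descriptions, 0 columns stayed unused, and values were taken as deposited. The table holds 70580 entries; 1738 control probe sets were left out, and of the 68842 clusters 23446 carry 1 gene symbol, 505 several and 44891 none. Symbols come from the platform annotation, updated through gene IDs for 1 symbol. A gene on several clusters (1182 genes) is given by its brightest cluster.

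Linear models were fitted to all 9 arrays in R 4.3.3 (limma 3.58.1, lmFit then eBayes, 6 residual degrees of freedom) and p-values were adjusted over all clusters by Benjamini and Hochberg. Named genes are the 12 largest differences in each direction with an adjusted p under 0.05, over 2-fold and pools that do not overlap, without symbols beginning LOC, RGD, AABR, Olr, Vom or Mir and without pseudogenes; genes that pass between the T2D groups; genes the study discusses; and members of 45 lists of textbook genes, of which 799 of 855 entries were measured. The lists, members and rules were chosen with earlier results of these data known. Lists are described by counts and medians, with no test of the list. On simulated data with 200 changed clusters of 68842, the treated against healthy fit recovered 89% of changes of 1 log2 and 100% of changes of 2 log2, with 6 false calls. The simulation gave all groups an equal, normal spread and changed far fewer clusters than were called here. It checks the code and does not measure the error rate in these data. Promoter and miRNA sequences are from RefSeq on GRCr8. Intervals are 95% intervals from the limma fit. Figures used matplotlib 3.10.9 in python 3.11.15. Alternatives were quantile normalization, median centring, only the 6 arrays compared, eBayes with trend and robust, only clusters with a mean of at least 5, adjustment over 1-symbol clusters, and each pool left out; an alternative that drops clusters whose 3 pools of any group share the same value was added after seeing the data.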

Additional observations from a re-analysis of the deposited data

Results flagged for a closer look

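In 3 genes the difference from healthy was not the same in the 2 T2D groups, by limma's direct test between them. The difference of treated minus T2D control livers was -1.80 log2 in Slc20a1 (adjusted p = 0.0163), -0.69 in Igkvl15 (adjusted p = 0.0193) and -0.65 in Maff (adjusted p = 0.0249). These genes, 0.0128% of gene clusters, were picked by this test. That all 3 treated pools lay below all 3 T2D control pools in each follows largely from that choice and adds no evidence. None of the 3 calls held without treated pool 3, T2D control pool 6 or healthy pool 7 or 8.

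Outside the named genes, 1294 of the 44891 clusters with no gene symbol were over 2-fold higher in treated than in healthy livers at an adjusted p under 0.05, and 322 were over 2-fold lower. They were not described further because the annotation used here pairs them with no gene.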

How the results depend on the processing

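Treated against healthy, the 3508 higher gene clusters stayed within 1.5 times under every alternative run, and between 2725 and 3748 with 1 pool left out. The 5820 lower ones became 2926 under median centring, 3733 with only the 6 arrays and 2202 with only clusters of mean 5 or more, and 3437 to 7921 with 1 pool left out, the extremes without treated pool 3 and without healthy pool 9. At the study's threshold the 616 higher ranged from 534 to 759 and the 228 lower from 186 to 287 with 1 pool left out, and quantile normalization gave 351 lower. The 3 genes between the T2D groups became 1 with only clusters of mean 5 or more, 8 without clusters of identical values, an alternative chosen after seeing the data, and 0 to 76 with 1 pool left out: 0 without treated pool 3, T2D control pool 6 or healthy pool 7 or 8, 76 without T2D control pool 4 and 14 without healthy pool 9. The cause of these moves was not tested, apart from the fewer clusters or arrays that an alternative leaves.

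Of 217 genes named (Abcg8 not counted), 167 were called. Of these 167, 0 turned direction under any alternative. The call was lost in 10 under an alternative other than a left-out pool and in 13 without 1 pool, with those pools named beside the values in the results. Apob, Fasn, Foxo3, Pklr, Soat2, Top2a and Trem2 lost it with only the 6 arrays, Foxo3, Glul and Igfbp1 under quantile normalization and Fasn, Nsdhl and Soat2 under median centring. 14 genes that were not called passed under at least 1 alternative. Direction turned only in genes that were not called. Under quantile normalization the difference was -0.08 in Akt2, 0.09 in Alb, -0.11 in Apoe, 0.05 in Cd3d, 0.09 in Cd3g, -0.27 in Fbp1, -0.09 in Hp, 0.09 in Ifng, 0.10 in Il6, 0.01 in Krt19, -0.03 in Nr1h4 and 0.02 in Psat1. Under median centring it was 0.10 in Cat, 0.06 in Cd3d, 0.07 in Cd3g, 0.06 in Ifng, 0.08 in Il6, 0.08 in Krt19, 0.08 in Pcna, 0.09 in Psat1 and 0.06 in Rbp4. With 1 pool left out it was -0.02 to 0.07 in Akt2, -0.08 to 0.01 in Cat, -0.09 to 0.02 in Cd3g, -0.49 to 0.03 in Cyp2b1, -0.04 to 0.07 in Cyp4a2, -0.30 to 0.17 in Jun, -0.17 to 0.03 in Pcna, -0.11 to 0.05 in Psat1 and -0.01 to 0.10 in S100a8.

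No paired analysis was possible because the pools are numbered 1 to 9 and no number is shared between groups. The deposited table gives no detection calls, and dim genes were set against the mean of the background probe sets alone.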
